A study of Homo sapiens with 24 samples.

Results

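The transcripts described here encode 41 factors that hold RNA polymerase II (Pol II) near promoters or help it elongate, out of 58721 annotated genes counted in each of 24 RNA-seq libraries. The members were given as a list of gene symbols: 4 subunits of the negative elongation factor NELF, 5 DSIF and histone chaperone genes, 9 genes of P-TEFb, the 7SK ribonucleoprotein and the BET family, 9 genes of the super elongation complex, 7 of the PAF1 complex and TFIIS, 3 of the CDK12 and CDK13 kinases, and 4 of Integrator. Each of the 8 groups had 3 libraries. In LN-229, a wild-type glioblastoma cell line, the groups were ZFX knockdown by siRNA (siZFX), ZNF593 knockdown by siRNA (siZNF593), the pair of siRNAs given together (siZFX_siZNF593, here the combined knockdown), and 2 groups of control siRNA, siControl_2 and siControl. The labels give the same treatment for both control groups, and the deposited names alone tie siControl_2 to the combined knockdown. The other line was 293T, a human embryonic kidney line, and every group of it was a knockout of both ZFX and ZNF711. These cells received FLAG-tagged wild-type ZFX (wtZFX), a ZFX FLAG construct named ZFX12_13, or the empty vector pCMV6. The labels do not say what ZFX12_13 lacks or carries, whether the knockout cells are 1 clone, or at which time after transfection RNA was taken. The replicates are called biological, but no label says that they were separate cultures, so each p-value reflects only how these samples spread, and that spread could be technical.

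Soon after it starts, Pol II stops near many promoters, bound by NELF and by DSIF, and it is released when the P-TEFb kinase, CDK9 with a cyclin T, phosphorylates both factors and the polymerase. Free P-TEFb is limited, since the 7SK ribonucleoprotein holds much of it inactive until it reaches BET proteins or the super elongation complex. Downstream, the PAF1 complex, TFIIS, the histone chaperones and the CDK12 and CDK13 kinases act on the moving polymerase, whereas Integrator cuts nascent RNA and ends transcription at many pause sites. ZFX is a zinc finger transcription factor that binds promoters, and the study asked how a reduced ZFX level changes pausing at its targets.

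Reads assigned to genes numbered between 16223239 and 30159260 per library, and the 41 members took 0.345% to 0.559% of them. ZFX itself averaged 15.7 ± 3.58 CPM with siZFX and 49.6 ± 4.22 CPM with siControl (CPM, here for ZFX and ZNF593 over the library total on genes; SD, n = 3 each), and 27.5 ± 2.48 CPM in the combined knockdown against 52.0 ± 4.89 CPM with siControl_2. It stood at 15430.1 ± 1202 CPM with wtZFX and 18637 ± 3034 CPM with ZFX12_13, against 226.9 ± 10.8 CPM with pCMV6 (SD, n = 3 each), and reads of a knocked-out gene do not check the knockout. Unstranded counting gave ZNF593 no reads. With both stranded columns summed it had 2.34 ± 0.689 CPM with siZNF593 against 34.0 ± 2.58 CPM with siControl, and 3.21 ± 0.480 CPM in the combined knockdown against 34.9 ± 3.18 CPM with siControl_2. For all other genes CPM is over library totals scaled within each line by TMM factors, which centre most genes. With siControl, the glial genes SOX10 and S100B had 1275.5 ± 16.9 and 362 ± 17.1 CPM, but the glial gene GFAP had 2.62 ± 0.631 CPM. With pCMV6 the kidney genes SIX2 and EYA1 had 21.6 ± 1.46 and 15.3 ± 0.739 CPM, while PAX8 and CDH16, which define kidney epithelium, were near 0 at 0.142 ± 0.0444 and 0.0307 ± 0.0266 CPM. Not every marker separated the lines. SOX10 and S100B had 0.836 and 0.0609 CPM with pCMV6, and SIX2 and EYA1 had 0.138 and 0.0229 CPM with siControl. But PAX8 had 11.5 ± 1.01 CPM with siControl, and the kidney gene SALL1 had 48.2 ± 2.12 CPM there and 42.9 ± 1.53 CPM with pCMV6. The glial gene OLIG2 had 20.9 ± 1.67 CPM with siControl and 12.9 ± 0.695 CPM with pCMV6. Mitochondrial reads made up 4.45% to 4.60% with siZFX and 4.32% to 5.01% with siControl_2, against 3.19% to 3.60% with siControl. In the combined knockdown they were 4.74%, 4.54% and 3.57% in replicates 1, 2 and 3. Of all reads, 71.0% to 71.9% fell on genes with pCMV6, against 74.0% to 74.8% with wtZFX and 72.4% to 74.2% with ZFX12_13. The part of these differences in the results was not tested.

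Replicate 3 of the combined knockdown deviated from its group with transcript GC content more strongly than any other library. Over 13731 genes, its log2 deviation from its group had a Spearman correlation of -0.626 with transcript GC content, where the other 23 libraries lay between -0.438 and 0.611, as a description across genes. The lowest of these was siZNF593 replicate 2. The highest was replicate 1 of the combined knockdown, whose deviation is measured partly from replicate 3. Over 39 members the deviations had an SD of 0.357 in siZNF593 replicate 2 and 0.367 in replicate 3 of the combined knockdown. The GC-rich member MLLT1, whose transcript is 63.4% GC, was low in replicate 3 of the combined knockdown. Where it decided the call of a member described against siControl_2, or moved that member's change by more than 1.5 times, the value without it is given too. It also entered the spread of the fit used for the single siRNAs against siControl, where leaving it out alone was not tried.

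Levels can be compared between genes only per length, so they are given first as CPM per kilobase of exon, with TMM factors taken over all 24 libraries. The length joins all annotated exons of a gene, expressed here or not, so the order depends on the annotation. It was longest for INTS6 and CDK13, at 25509 and 25093 bases. The 39 members with enough reads to be tested spanned 1.61 to 82.9 CPM per kilobase with pCMV6 and 0.599 to 47.8 CPM per kilobase with siControl, with medians of 12.02 and 14.05. With siControl the order was led by BRD2, SSRP1 and NELFB, at 47.8 ± 0.729, 46.9 ± 2.08 and 46.7 ± 1.55 CPM per kilobase (SD, n = 3), levels that do not differ beyond their spread. Unstranded counting kept 80.9% of the stranded columns summed for BRD2 and 82.3% for SSRP1, but 100% for NELFB, so their closeness is uncertain. At the low end were INTS6 at 2.10 ± 0.124, then HEXIM2 at 1.31 ± 0.0138 and CCNK at 1.30 ± 0.0955, which do not differ beyond their spread, and EAF2 at 0.599 ± 0.0792 CPM per kilobase. The places of HEXIM2 and CCNK rest on the 27.4% and 17.5% of their reads that unstranded counting kept. With both stranded columns summed they had 9.58 and 57.5 CPM with siControl, where the unstranded counts gave 2.35 and 9.41 CPM, none of these per length. With pCMV6 the first places were held by BRD2 at 82.9 ± 1.28 and SSRP1 at 61.7 ± 1.22 CPM per kilobase, and the lowest tested level was that of INTS6 at 1.61 ± 0.0732. That low place rests on the long annotated exons of INTS6. Not per length, INTS6 had 40.6, 43.1 and 39.5 CPM with pCMV6, against 4.53, 4.85 and 4.27 CPM for EAF2.

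**Figure D1:**
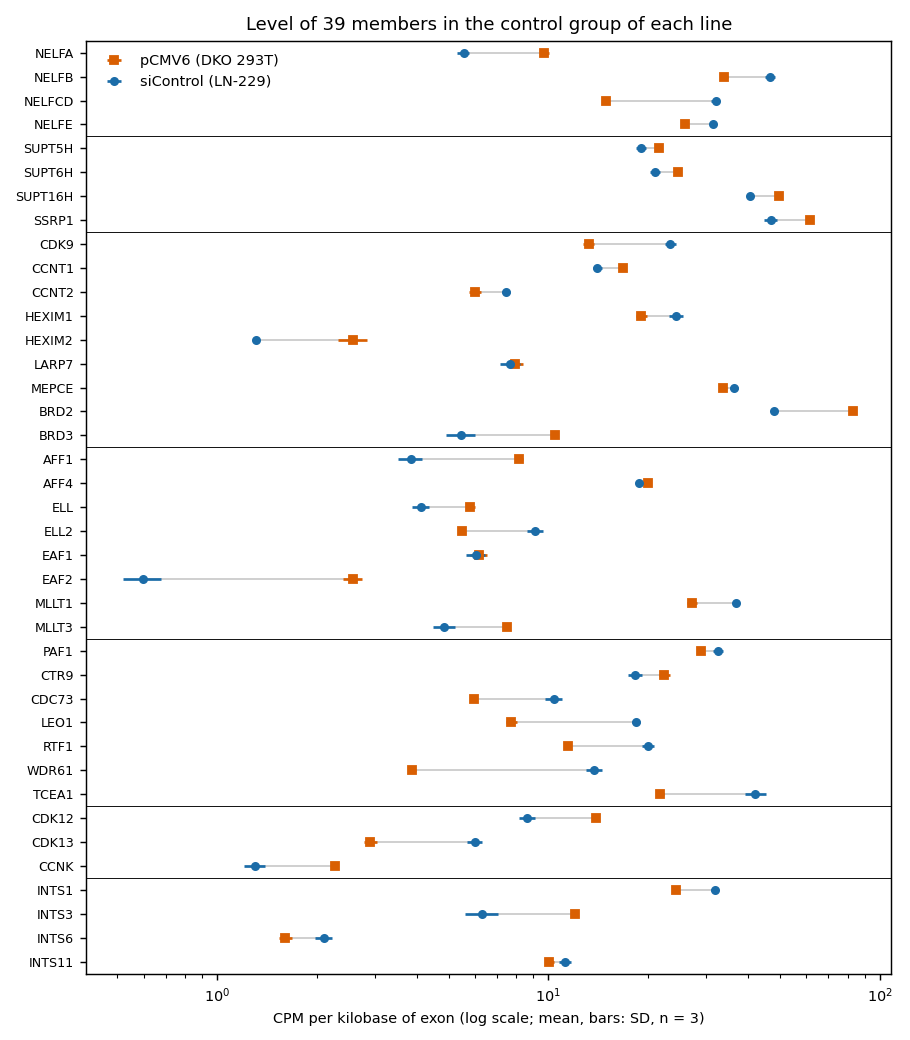
Level of the 39 tested members in the control group of each line, in CPM per kilobase of exon on a log axis. Orange squares are pCMV6 in the knockout 293T cells, blue circles are siControl in LN-229, and bars are the SD of 3 libraries. BRD2 had the highest level in both groups, and EAF2 and WDR61 lie far apart between them.

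Some members lose reads to overlapping genes, since unstranded counting discards a read that falls on more than 1 gene. SUPT4H1, the small DSIF subunit, had 4 reads in all 24 libraries, and the elongation factor ELL3 had 80 reads. Both failed the filter on low counts and could not be tested. Of the 2 stranded columns summed, unstranded counting kept 17.5% for CCNK, 27.4% for HEXIM2, 45.3% for EAF1, 57.8% for LARP7 and 75.1% for BRD3. The sum is no exact count either, because a read in a shared stretch then counts for both genes. SUPT4H1, SUPT16H, CCNT2, LARP7, ELL2, TCEA1 and INTS6 have pseudogenes by symbol, so reads they share with near-identical copies make their values uncertain.

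**Figure D2:**
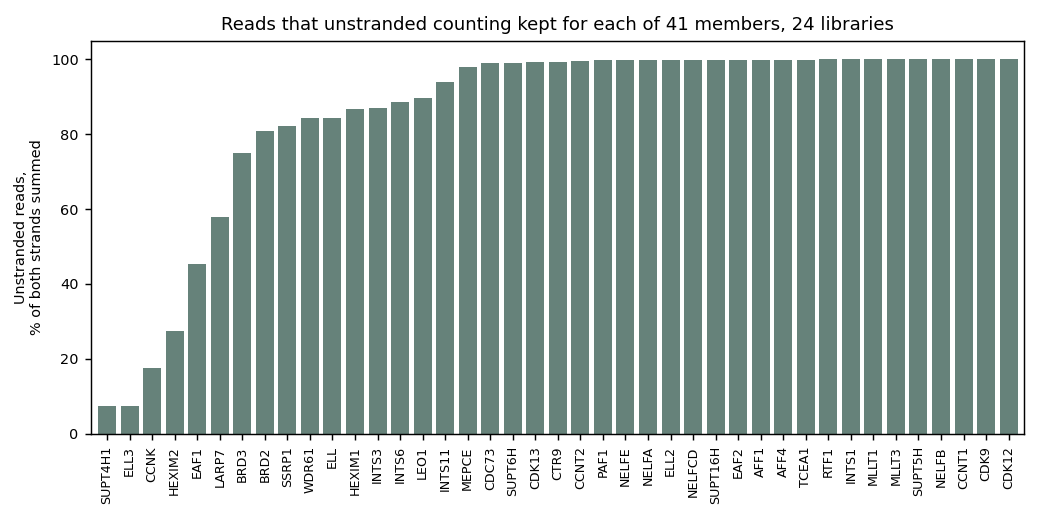
Reads that unstranded counting kept for each of the 41 members, in percent of both stranded columns summed, over 24 libraries. Bars run from SUPT4H1 and ELL3, at 7.27% and 7.41%, on the left to members that kept nearly all on the right, and 15 members are under 90%.

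Of the 39 tested members, 8 rose and 8 fell under siZFX relative to siControl at an adjusted p below 0.05 (edgeR quasi-likelihood test, Benjamini-Hochberg over all genes), where 30.9% of all 17684 tested genes were called, 13.8% higher and 17.1% lower. Leaving out 1 library of these groups gave 5 members higher whichever it was, and 3 (without siControl replicate 1) to 7 lower. With only the groups compared in the fit, 14 members were higher and 10 lower. All genes called numbered 5464 in the reported fit and up to 7999 in the alternatives that kept every library. The members' median log2 change was 0.08, beside 0.02 over all genes. With siZNF593, measured against the same siControl libraries, none was higher and 14 were lower, where 26.8% of all genes were called, 12.2% higher and 14.6% lower. The median was -0.11, beside 0.02 over all genes. At an unadjusted p under 0.05, 0 members were higher and 14 lower, beside 17.9% and 19.2% of all genes. DESeq2 called 0 higher, where 2312 of all genes were, but 1 was higher with only the groups compared in the fit or with all 6 control libraries. The 14 lower calls numbered 8 with upper-quartile scaling, where 2138 of all genes were lower in place of 2577. They numbered 9 to 12 with 1 library left out, the fewest without siControl replicate 1 or 2. The combined knockdown against siControl_2 had 8 members higher and 7 lower, where 38.2% of genes were called, 17.6% higher and 20.6% lower. It had 6 higher and 8 lower without its replicate 3, where 17.9% of genes were higher and 20.4% lower.

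In the knockout cells 4 members were higher and 16 lower with wtZFX than with pCMV6, where 42.3% of 19376 genes were called, 23.2% higher and 19.2% lower. ZFX12_13, measured against the same pCMV6 libraries, had 5 members higher and 11 lower, where 36.6% of genes were called, 20.9% higher and 15.7% lower. The members' median log2 change was -0.10 with each construct, beside -0.02 with wtZFX and -0.01 with ZFX12_13 over all genes. With at least 1.5-fold asked for as well, no member was called with either construct, where 14.1% of all genes were with wtZFX and 11.8% with ZFX12_13. At that fold 1 member was called with siZFX, where 13.8% of all genes were, and 3 with siZNF593, where 11.2% were.

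**Figure D3:**
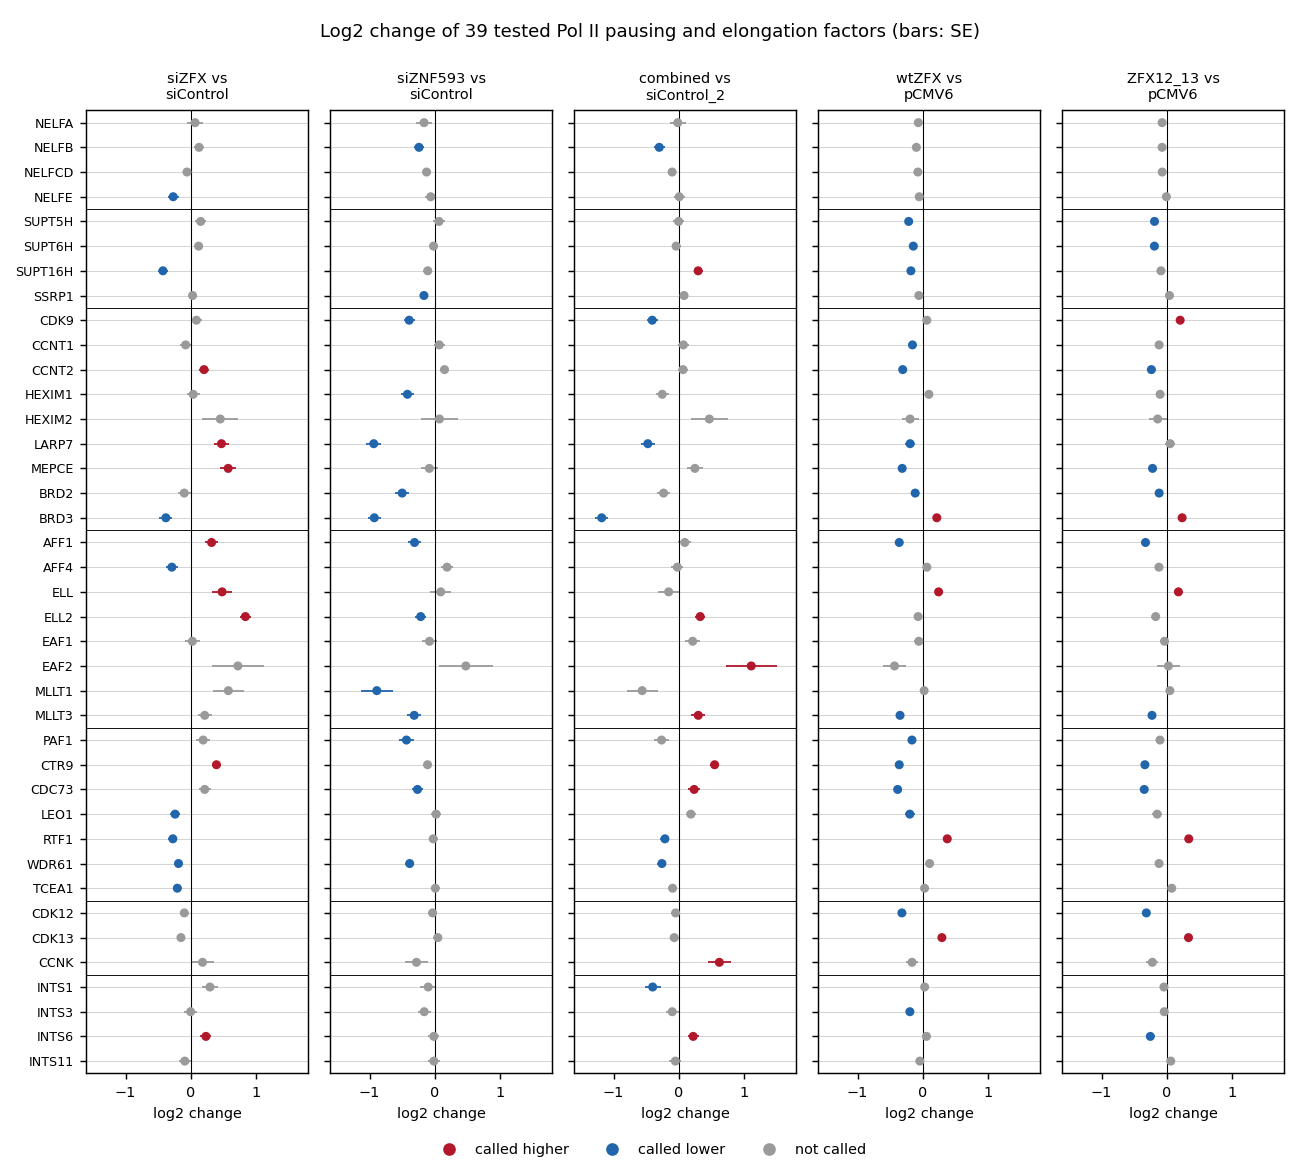
Log2 change of the 39 tested members in 5 comparisons, with horizontal lines between complexes. Points are fitted log2 changes, bars are SE, red is called higher, blue called lower and grey not called at an adjusted p of 0.05. The siZNF593 panel has 14 blue points and no red one, and BRD3 in the combined knockdown is the lowest point, at -1.18.

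Of the 4 NELF genes, 1 was called with each of siZFX, siZNF593 and the combined knockdown, a share of 25% beside 30.9%, 26.8% and 38.2% of all genes. NELFE, the RNA-binding subunit, had 61.5, 67.2 and 58.5 CPM with siZFX and 74.8, 75.5 and 75.6 CPM with siControl, and the ranges did not overlap. It was lower with siZFX (log2 change -0.27 with SE 0.08, adjusted p = 0.013), a call lost without siZFX replicate 1 or 3 (adjusted p up to 0.083) and with all 6 control libraries as the control (adjusted p = 0.23). The second control group, siControl_2, had 69.1, 59.8 and 59.1 CPM and was itself below siControl (log2 change -0.26 with SE 0.08, adjusted p = 0.04), a call lost without siControl replicate 1 or 2 or 3 or siControl_2 replicate 2 or 3 (adjusted p up to 0.17) and with upper-quartile scaling (adjusted p = 0.058).

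NELFB, a core subunit of NELF, had 101, 91.0 and 88.8 CPM with siZNF593 and 113, 113 and 106 CPM with siControl, with no overlap. The lower value was called (log2 change -0.24 with SE 0.08, adjusted p = 0.03), but not without siControl replicate 1 or 2 or siZNF593 replicate 2 or 3 (adjusted p up to 0.081), nor with upper-quartile scaling or GC and length offsets or all 6 control libraries as the control (adjusted p up to 0.14). NELFB had 90.3, 91.1 and 73.8 CPM in the combined knockdown, below all siControl_2 libraries at 111, 106 and 96.8 CPM (log2 change -0.30 with SE 0.08, adjusted p = 0.0054). GC and length offsets turned that change to 0.13 (adjusted p = 0.33), and the call was also lost with only the groups compared in the fit. NELFA and NELFCD were called with none of the siRNAs, and no NELF gene was called with either construct. With GC and length offsets NELFA and NELFB were lower with wtZFX, at -0.28 (adjusted p = 0.00013) and -0.34 (adjusted p = 1.8e-07), and with ZFX12_13, at -0.25 (adjusted p = 0.00069) and -0.31 (adjusted p = 1.6e-06).

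SUPT16H, the large subunit of the histone chaperone FACT, had 181, 199.5 and 189 CPM with siZFX, 223, 241 and 247 CPM with siZNF593 and 255, 256 and 256 CPM with siControl. All siZFX libraries lay below those of siControl and of siZNF593. SUPT16H fell with siZFX (log2 change -0.43 with SE 0.07, adjusted p = 5.2e-05) and kept that call in every alternative tried but the minimum fold, while siZNF593 gave -0.11 (SE 0.07, adjusted p = 0.28). SUPT16H had 265, 269 and 317 CPM in the combined knockdown, above 228, 228 and 238 CPM with siControl_2 (log2 change 0.30 with SE 0.07, adjusted p = 0.0019), a call lost with siControl as the control (adjusted p = 0.092). The change thus pointed the other way from that with siZFX, a tested difference of 0.72 (SE 0.10, adjusted p = 1.5e-05). With wtZFX it had 389, 388 and 374 CPM, below the 445, 437 and 425 CPM of pCMV6 (log2 change -0.18 with SE 0.05, adjusted p = 0.0028). ZFX12_13 libraries had 409, 426 and 393 CPM (log2 change -0.09 with SE 0.05, adjusted p = 0.14).

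SSRP1, the other FACT subunit, had 269, 268 and 259 CPM with siZFX, 227, 235 and 234 CPM with siZNF593 and 267, 268 and 247 CPM with siControl. The siZNF593 libraries lay below siControl (log2 change -0.17 with SE 0.06, adjusted p = 0.046), a call lost without siControl replicate 1 or 2 or siZNF593 replicate 1 (adjusted p up to 0.13) and with upper-quartile scaling or no filter on low counts or all 6 control libraries as the control (adjusted p up to 0.64). siZFX gave 0.03 (SE 0.06, adjusted p = 0.8). siControl_2 had 234, 210.0 and 219 CPM and was also below siControl (log2 change -0.24 with SE 0.06, adjusted p = 0.013), though not without siControl replicate 1 or 2 or siControl_2 replicate 2 (adjusted p up to 0.063).

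SUPT5H, the large DSIF subunit that clamps the polymerase, had 200.2, 189 and 196 CPM with wtZFX, 195, 198 and 203 CPM with ZFX12_13 and 222, 226 and 232 CPM with pCMV6. Every construct library lay below every vector library, and both falls kept their call in every alternative but the minimum fold (log2 change -0.22 with SE 0.05, adjusted p = 0.00059 with wtZFX; log2 change -0.19 with SE 0.05, adjusted p = 0.0027 with ZFX12_13). It was called with none of the siRNAs, with 0.15 (SE 0.08, adjusted p = 0.2) for siZFX, which GC and length offsets moved to 0.22 (adjusted p = 0.00097). SUPT6H, a chaperone that travels with Pol II, was lower with wtZFX (log2 change -0.15 with SE 0.05, adjusted p = 0.02), a call lost without wtZFX replicate 2 or 3 or pCMV6 replicate 1 or 2 or 3 (adjusted p up to 0.12), and with ZFX12_13 (log2 change -0.19 with SE 0.05, adjusted p = 0.004).

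LARP7, which binds and stabilises 7SK RNA, had 37.5, 41.01 and 35.7 CPM with siZFX, 14.1, 15.5 and 13.5 CPM with siZNF593 and 25.3, 28.7 and 28.6 CPM with siControl. The 3 groups did not overlap. LARP7 rose with siZFX (log2 change 0.47 with SE 0.11, adjusted p = 0.0019) and fell with siZNF593 (log2 change -0.94 with SE 0.11, adjusted p = 1.4e-06), and both calls held in every alternative but, for siZFX, the minimum fold. LARP7 had 18.1, 22.9 and 20.6 CPM in the combined knockdown against 32.0, 28.3 and 25.3 CPM with siControl_2, with no overlap. It fell there (log2 change -0.48 with SE 0.11, adjusted p = 0.0016), and the combined change lay below that of siZFX by a tested difference of -0.94 (SE 0.16, adjusted p = 0.00013). LARP7 had 38.0, 32.4 and 34.2 CPM with wtZFX, 45.9, 40.3 and 37.7 CPM with ZFX12_13 and 42.2, 37.6 and 39.9 CPM with pCMV6. The wtZFX libraries overlapped those of pCMV6. The lower value was called (log2 change -0.19 with SE 0.08, adjusted p = 0.043), but not without wtZFX replicate 2 or 3 or pCMV6 replicate 1 or 3 (adjusted p up to 0.2), nor with RLE scaling or DESeq2 or GC and length offsets or the stranded columns summed (adjusted p up to 0.28). LARP7 was higher with ZFX12_13 than with wtZFX (log2 change 0.25 with SE 0.08, adjusted p = 0.026), a call lost without wtZFX replicate 2 or 3 or ZFX12_13 replicate 1 (adjusted p up to 0.14) and with the stranded columns summed or only the groups compared in the fit (adjusted p up to 0.081).

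MEPCE, the enzyme that caps 7SK RNA, had 169.7, 167 and 151 CPM with siZFX, 113, 95.8 and 101 CPM with siZNF593 and 108, 107 and 113 CPM with siControl. Its siZFX libraries lay above both other groups, and it rose with siZFX (log2 change 0.57 with SE 0.13, adjusted p = 0.0022) in every alternative but the minimum fold, while siZNF593 gave -0.08 (SE 0.13, adjusted p = 0.68). The combined knockdown had 139.6, 135 and 87.8 CPM and siControl_2 had 109, 96.7 and 99.2 CPM (log2 change 0.25 with SE 0.13, adjusted p = 0.14). Replicate 3 was the low one, and without it the change was 0.44 (adjusted p = 9.5e-07). MEPCE had 111, 111 and 118 CPM with wtZFX, 127, 122 and 115 CPM with ZFX12_13 and 146, 138 and 139.6 CPM with pCMV6. Both constructs gave levels below every vector library (log2 change -0.32 with SE 0.05, adjusted p = 2e-05 with wtZFX; log2 change -0.22 with SE 0.05, adjusted p = 0.0015 with ZFX12_13).

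CDK9, the P-TEFb kinase, had 69.7, 66.5 and 59.5 CPM with siZFX, 51.3, 44.8 and 44.3 CPM with siZNF593 and 58.9, 63.5 and 62.1 CPM with siControl. It fell with siZNF593, whose libraries were below both other groups (log2 change -0.39 with SE 0.08, adjusted p = 0.00088), while siZFX gave 0.08 (SE 0.08, adjusted p = 0.49). CDK9 had 49.9, 48.5 and 46.3 CPM in the combined knockdown against 66.5, 61.9 and 63.6 CPM with siControl_2 (log2 change -0.41 with SE 0.08, adjusted p = 0.00037). The falls with siZNF593 and in the combined knockdown held in every alternative but the minimum fold. CDK9 had 51.9, 49.2 and 51.5 CPM with wtZFX (log2 change 0.06 with SE 0.06, adjusted p = 0.43 against pCMV6), 55.6, 55.1 and 57.9 CPM with ZFX12_13 and 50.3, 46.7 and 49.3 CPM with pCMV6. CDK9 was higher with ZFX12_13 than with pCMV6 (log2 change 0.20 with SE 0.06, adjusted p = 0.0078), a call lost without pCMV6 replicate 2 (adjusted p = 0.059).

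Of the cyclins that activate CDK9, CCNT1 was lower with wtZFX (log2 change -0.16 with SE 0.05, adjusted p = 0.021), a call lost without wtZFX replicate 2 or 3 or pCMV6 replicate 1 or 2 or 3 (adjusted p up to 0.09) and with GC and length offsets (adjusted p = 0.078). CCNT2 had 64.8, 67.6 and 72.1 CPM with siZFX and 57.8, 59.1 and 61.0 CPM with siControl, with no overlap. It was higher with siZFX (log2 change 0.20 with SE 0.08, adjusted p = 0.046), a call lost without any 1 of the 6 libraries (adjusted p up to 0.21) and with no filter on low counts (adjusted p = 0.17). CCNT2 had 54.9, 52.0 and 55.3 CPM with wtZFX, 61.1, 58.4 and 50.9 CPM with ZFX12_13 and 65.0, 70.1 and 65.9 CPM with pCMV6. Both constructs lay below the vector (log2 change -0.31 with SE 0.06, adjusted p = 0.00035 with wtZFX; log2 change -0.24 with SE 0.06, adjusted p = 0.0052 with ZFX12_13), and the ZFX12_13 call was lost with GC and length offsets (adjusted p = 0.064).

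HEXIM1, the protein that inhibits CDK9 inside the 7SK particle, had 85.3, 74.9 and 76.1 CPM with siZFX, 64.0, 49.6 and 58.6 CPM with siZNF593 and 80.6, 73.9 and 76.1 CPM with siControl. It fell with siZNF593, below every siControl library (log2 change -0.42 with SE 0.10, adjusted p = 0.0034), in every alternative but the minimum fold. The combined knockdown had 66.6, 70.1 and 52.5 CPM against 80.7, 74.3 and 70.7 CPM with siControl_2 (log2 change -0.25 with SE 0.10, adjusted p = 0.053), which was not called, and without replicate 3 the change was -0.13 (adjusted p = 0.22). HEXIM1 had 87.5, 75.6 and 72.8 CPM with ZFX12_13 and 94.3, 87.0 and 89.1 CPM with wtZFX, and these ranges overlapped. The lower ZFX12_13 value was called (log2 change -0.20 with SE 0.06, adjusted p = 0.027), but not without wtZFX replicate 1 or 3 or ZFX12_13 replicate 2 or 3 (adjusted p up to 0.14), nor with only the groups compared in the fit (adjusted p = 0.064). Its paralogue HEXIM2 had 3.94, 2.59 and 3.08 CPM with siZFX, 3.01, 1.40 and 3.00 CPM with siZNF593 and 2.37, 2.34 and 2.33 CPM with siControl, and was called in none of the 5 comparisons with a control siRNA or the vector. With the stranded columns summed it was higher with siZFX, at 0.53 (adjusted p = 0.0089), and with ZFX12_13, at 0.27 (adjusted p = 0.015), where the unstranded value was -0.14 (adjusted p = 0.46).

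The BET proteins BRD2 and BRD3 read acetylated histones and bind P-TEFb partners on chromatin. BRD3 had 25.5, 25.4 and 24.9 CPM with siZFX, 17.2, 15.3 and 19.5 CPM with siZNF593 and 36.5, 30.5 and 31.9 CPM with siControl. The 3 groups formed separate ranges. BRD3 fell with siZFX (log2 change -0.38 with SE 0.10, adjusted p = 0.0049), where the call was lost without siControl replicate 1 (adjusted p = 0.051), and with siZNF593 (log2 change -0.93 with SE 0.10, adjusted p = 3.5e-07), where it held throughout. The combined knockdown had 17.2, 16.3 and 15.9 CPM against 35.9, 37.1 and 39.3 CPM with siControl_2, with no overlap (log2 change -1.18 with SE 0.10, adjusted p = 6.2e-09). The combined change lay below that of siZFX alone by a tested difference of -0.80 (SE 0.14, adjusted p = 0.00032). BRD3 had 102, 106 and 99.6 CPM with wtZFX, 97.0, 109.5 and 105 CPM with ZFX12_13 and 89.9, 86.6 and 88.1 CPM with pCMV6. It was higher with both constructs (log2 change 0.21 with SE 0.05, adjusted p = 0.0022 with wtZFX; log2 change 0.23 with SE 0.05, adjusted p = 0.0012 with ZFX12_13).

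BRD2 had 289, 282 and 291 CPM with siZFX, 214, 212 and 228 CPM with siZNF593 and 305, 307 and 314 CPM with siControl. It fell with siZNF593, below every siControl library (log2 change -0.50 with SE 0.10, adjusted p = 0.00099), in every alternative but the minimum fold, while siZFX gave -0.10 (SE 0.10, adjusted p = 0.51). BRD2 had 269.8, 269 and 181 CPM in the combined knockdown against 283, 273 and 291 CPM with siControl_2 (log2 change -0.23 with SE 0.10, adjusted p = 0.078), a change of -0.06 (adjusted p = 0.46) without replicate 3 of the combined knockdown. BRD2 had 691, 683 and 694 CPM with wtZFX, 662, 697 and 708 CPM with ZFX12_13 and 742, 739 and 761 CPM with pCMV6. It was lower with wtZFX (log2 change -0.12 with SE 0.04, adjusted p = 0.038) and with ZFX12_13 (log2 change -0.12 with SE 0.04, adjusted p = 0.042). The wtZFX call was lost without any 1 of the 6 libraries (adjusted p up to 0.14) and with RLE scaling or no filter on low counts or the stranded columns summed (adjusted p up to 0.098). The ZFX12_13 call was lost without pCMV6 replicate 1 or 2 or 3 or ZFX12_13 replicate 2 (adjusted p up to 0.15) and with only the groups compared in the fit.

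**Figure D4:**
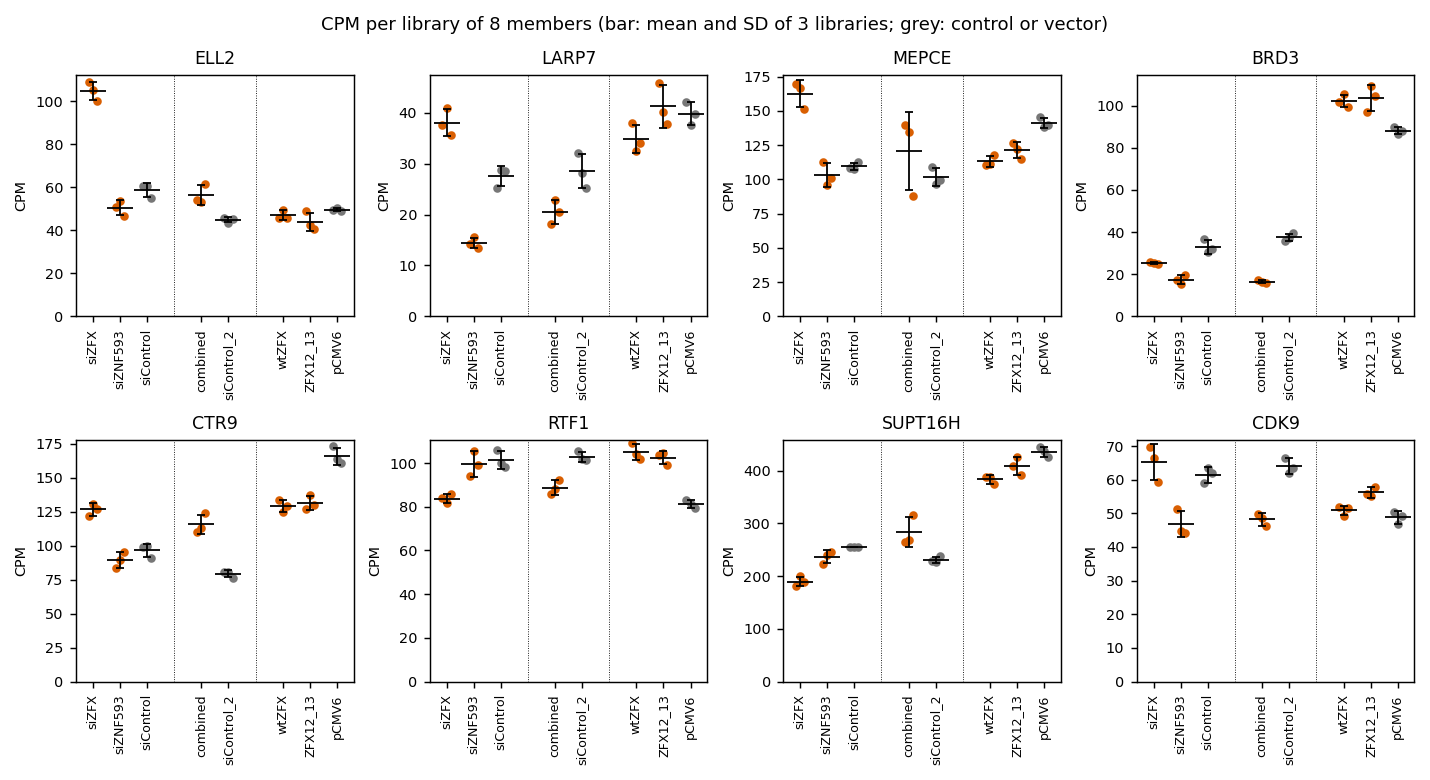
CPM of 8 members in each of the 24 libraries, by group, on linear axes that start at 0. Orange dots are libraries with an siRNA or a construct, grey dots are control siRNA or vector, and the black mark and bar are the mean and SD of 3 libraries; "combined" is the combined knockdown. LARP7 lies apart in siZFX, siZNF593 and siControl, and CTR9 and RTF1 move in opposite directions with siZFX and with both constructs.

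In the super elongation complex, ELL2, an elongation factor that speeds Pol II, had 109, 105 and 100.40 CPM with siZFX, 51.1, 53.8 and 46.8 CPM with siZNF593 and 60.4, 60.8 and 55.1 CPM with siControl. The siZFX libraries lay above both other groups. ELL2 rose with siZFX (log2 change 0.83 with SE 0.08, adjusted p = 2.6e-08), the called member with the largest change there, in every alternative tried. With siZNF593 it was lower (log2 change -0.22 with SE 0.08, adjusted p = 0.049), a call lost without siControl replicate 1 or 2 or siZNF593 replicate 1 or 3 (adjusted p up to 0.15) and with upper-quartile scaling or no filter on low counts or a filter of 1 CPM in 3 libraries or the stranded columns summed or all 6 control libraries as the control (adjusted p up to 0.83). The combined knockdown had 54.3, 53.1 and 61.6 CPM, above siControl_2 at 45.8, 43.5 and 45.5 CPM (log2 change 0.33 with SE 0.08, adjusted p = 0.0026). siControl_2 was below siControl (log2 change -0.39 with SE 0.08, adjusted p = 0.0022), and against siControl the same knockdown libraries gave -0.061 (adjusted p = 0.58). ELL2 had 45.8, 49.7 and 45.8 CPM with wtZFX, 48.9, 42.4 and 40.8 CPM with ZFX12_13 and 49.4, 50.3 and 49.0 CPM with pCMV6, with no call for wtZFX (log2 change -0.07 with SE 0.07, adjusted p = 0.4) or for ZFX12_13 (log2 change -0.17 with SE 0.07, adjusted p = 0.052).

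Its paralogue ELL had 25.7, 23.9 and 25.2 CPM with siZFX, 22.5, 17.2 and 17.4 CPM with siZNF593 and 18.1, 18.9 and 16.7 CPM with siControl. ELL was higher with siZFX, with no overlap (log2 change 0.48 with SE 0.16, adjusted p = 0.026), a call lost without siControl replicate 1 or 3 or siZFX replicate 1 or 3 (adjusted p up to 0.082). ELL had 42.1, 40.4 and 42.5 CPM with wtZFX, 41.1, 39.2 and 39.4 CPM with ZFX12_13 and 36.2, 35.7 and 33.9 CPM with pCMV6. Both construct groups lay above the vector. The wtZFX change (log2 change 0.24 with SE 0.06, adjusted p = 0.0027) was not called with GC and length offsets (adjusted p = 0.34). The ZFX12_13 change (log2 change 0.18 with SE 0.06, adjusted p = 0.03) was not called without pCMV6 replicate 1 or 2 or 3 or ZFX12_13 replicate 1 (adjusted p up to 0.14), nor with upper-quartile scaling or no filter on low counts or GC and length offsets (adjusted p up to 0.71).

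Among the AFF scaffolds of the complex, AFF1 had 40.6, 48.4 and 46.4 CPM with siZFX, 30.5, 26.9 and 30.2 CPM with siZNF593 and 38.0, 32.9 and 37.9 CPM with siControl. The groups did not overlap, with siZFX above siControl (log2 change 0.32 with SE 0.10, adjusted p = 0.018) and siZNF593 below it (log2 change -0.31 with SE 0.10, adjusted p = 0.026). The siZFX call was lost without siControl replicate 2 or siZFX replicate 2 or 3 (adjusted p up to 0.13). The siZNF593 call was lost without siControl replicate 1 or 3 or siZNF593 replicate 2 (adjusted p up to 0.1) and with upper-quartile scaling or all 6 control libraries as the control (adjusted p up to 0.1). AFF1 had 83.8, 86.8 and 81.5 CPM with wtZFX, 77.2, 92.6 and 88.3 CPM with ZFX12_13 and 107, 111 and 106 CPM with pCMV6. All construct libraries lay below the vector, and both falls held in every alternative but the minimum fold (log2 change -0.36 with SE 0.06, adjusted p = 2.1e-05 with wtZFX; log2 change -0.33 with SE 0.06, adjusted p = 0.0001 with ZFX12_13).

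AFF4, the scaffold best known from the complex, had 145, 148 and 164 CPM with siZFX, 192, 212 and 232 CPM with siZNF593 and 189, 186 and 185 CPM with siControl. Its siZFX libraries were lower, with no overlap (log2 change -0.29 with SE 0.09, adjusted p = 0.017), a call lost without siControl replicate 1 or 3 or siZFX replicate 1 or 2 (adjusted p up to 0.092). siZNF593 gave 0.19 (SE 0.09, adjusted p = 0.14). AFF4 had 236, 273 and 257 CPM with ZFX12_13, below wtZFX at 297, 274 and 297 CPM (log2 change -0.18 with SE 0.05, adjusted p = 0.017), a call lost without wtZFX replicate 1 or 3 (adjusted p up to 0.092) and with only the groups compared in the fit (adjusted p = 0.058).

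MLLT1 and MLLT3 are the YEATS-domain readers of acetylated histones in the complex. MLLT1 had 234, 236 and 216 CPM with siZFX, 94.3, 72.3 and 82.0 CPM with siZNF593 and 154, 156 and 151 CPM with siControl. The 3 groups did not overlap. It fell with siZNF593 (log2 change -0.89 with SE 0.24, adjusted p = 0.019), a call lost without siZNF593 replicate 2 (adjusted p = 0.06). siZFX gave 0.57 (SE 0.24, adjusted p = 0.095), which was called with GC and length offsets at 0.67 (adjusted p = 6.7e-07). Each SE comes from the fit over all groups of the line, with replicate 3 of the combined knockdown at 57.5 CPM. What that library adds to the SE with siZFX was not tested, so the missing call does not show a weak change. The combined knockdown had 137, 124 and 57.5 CPM against 156, 161 and 153 CPM with siControl_2, the lowest being replicate 3 (log2 change -0.56 with SE 0.24, adjusted p = 0.089). Without that library the change was -0.26 (adjusted p = 0.0033). The offsets also turned its values with wtZFX and ZFX12_13, 0.02 (adjusted p = 0.77) and 0.05 (adjusted p = 0.49), to -0.24 (adjusted p = 3.7e-05) and -0.18 (adjusted p = 0.00094).

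MLLT3 had 40.0, 42.1 and 38.2 CPM with siZFX (log2 change 0.21 with SE 0.10, adjusted p = 0.14). It had 27.7, 27.0 and 28.7 CPM with siZNF593, below siControl at 34.1, 37.5 and 32.2 CPM (log2 change -0.32 with SE 0.11, adjusted p = 0.03), a call lost without siControl replicate 1 or 2 or siZNF593 replicate 1 or 2 (adjusted p up to 0.14) and with upper-quartile scaling (adjusted p = 0.081). MLLT3 had 41.6, 43.1 and 56.9 CPM in the combined knockdown, above siControl_2 at 37.9, 36.5 and 40.8 CPM (log2 change 0.30 with SE 0.10, adjusted p = 0.028). That call was lost without siControl_2 replicate 1 or 2 or combined knockdown replicate 3 (adjusted p up to 0.2) and with GC and length offsets or only the groups compared in the fit (adjusted p up to 0.11), with a change of 0.15 (adjusted p = 0.2) when replicate 3 of the combined knockdown was left out. MLLT3 had 60.5, 57.7 and 58.7 CPM with wtZFX, 62.3, 63.7 and 66.6 CPM with ZFX12_13 and 76.2, 74.5 and 74.8 CPM with pCMV6. It fell with both constructs, with no overlap (log2 change -0.35 with SE 0.05, adjusted p = 9.1e-06 with wtZFX; log2 change -0.23 with SE 0.05, adjusted p = 0.0016 with ZFX12_13).

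The ELL partner EAF2 had 1.68, 2.80 and 3.22 CPM in the combined knockdown and 1.48, 1.10 and 0.971 CPM with siControl_2. It was higher in the combined knockdown (log2 change 1.11 with SE 0.39, adjusted p = 0.029), a call lost without siControl_2 replicate 2 or 3 or combined knockdown replicate 2 or 3 (adjusted p up to 0.092) and with GC and length offsets (adjusted p = 0.051), with a change of 0.92 (adjusted p = 0.074) without replicate 3. Its relative EAF1 was called in none of the 5 comparisons with a control siRNA or the vector, but with ZFX12_13 it was lower at -0.15 (adjusted p = 0.03) when the stranded columns were summed. In the combined knockdown it had 0.21 (SE 0.11, adjusted p = 0.14), and 0.27 (adjusted p = 0.045) without replicate 3.

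Subunits of the PAF1 complex were called in both directions with siZFX, 1 higher and 4 lower of the 7 genes of the complex and TFIIS, beside 13.8% higher and 17.1% lower of all genes. CTR9, its scaffold, had 122, 131 and 127 CPM with siZFX, 83.3, 89.9 and 95.2 CPM with siZNF593 and 99.2, 99.5 and 91.2 CPM with siControl. The siZFX libraries stood above both other groups, and CTR9 rose with siZFX (log2 change 0.39 with SE 0.07, adjusted p = 0.00018), while siZNF593 gave -0.11 (SE 0.07, adjusted p = 0.28). CTR9 had 110.5, 113 and 124 CPM in the combined knockdown against 80.5, 81.0 and 76.3 CPM with siControl_2 (log2 change 0.55 with SE 0.07, adjusted p = 2.7e-06). Both rises held in every alternative but the minimum fold, the choice of control group included. siControl_2 was below siControl (log2 change -0.29 with SE 0.07, adjusted p = 0.011), a call lost without siControl replicate 1 or 2 or siControl_2 replicate 3 (adjusted p up to 0.068). CTR9 had 134, 125 and 129 CPM with wtZFX, 127, 137 and 130.2 CPM with ZFX12_13 and 173, 164 and 161 CPM with pCMV6. It fell with both constructs, below every vector library (log2 change -0.36 with SE 0.05, adjusted p = 2.8e-06 with wtZFX; log2 change -0.34 with SE 0.05, adjusted p = 1.1e-05 with ZFX12_13).

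RTF1, which promotes ubiquitination of histone H2B, had 83.9, 81.7 and 85.8 CPM with siZFX, 94.1, 106 and 99.3 CPM with siZNF593 and 106, 100.04 and 98.3 CPM with siControl. The siZFX libraries were below both other groups, and RTF1 fell with siZFX (log2 change -0.28 with SE 0.07, adjusted p = 0.0029) in every alternative but the minimum fold. RTF1 had 85.7, 88.1 and 92.3 CPM in the combined knockdown against 106, 102 and 101 CPM with siControl_2 (log2 change -0.21 with SE 0.07, adjusted p = 0.015), a call lost without siControl_2 replicate 1 or 3 or combined knockdown replicate 1 or 2 (adjusted p up to 0.09) and with upper-quartile scaling or the stranded columns summed or only the groups compared in the fit (adjusted p up to 0.13). RTF1 had 109, 104 and 102 CPM with wtZFX, 104, 105 and 99.0 CPM with ZFX12_13 and 83.0, 81.3 and 79.3 CPM with pCMV6. It rose with both constructs, above every vector library (log2 change 0.37 with SE 0.05, adjusted p = 1.8e-06 with wtZFX; log2 change 0.34 with SE 0.05, adjusted p = 1.2e-05 with ZFX12_13), in every alternative but the minimum fold.

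CDC73, the tumour suppressor parafibromin, had 109.9, 114 and 115 CPM with siZFX, 70.5, 93.5 and 79.3 CPM with siZNF593 and 91.7, 103 and 97.5 CPM with siControl. The siZFX libraries all lay above siControl, but without a call, and the siZNF593 libraries overlapped siControl. Against siControl, only the siZNF593 libraries are taken up next. Their lower value was called (log2 change -0.27 with SE 0.09, adjusted p = 0.031), but not without siControl replicate 2 or 3 or siZNF593 replicate 1 or 3 (adjusted p up to 0.14), nor with upper-quartile scaling or the stranded columns summed or all 6 control libraries as the control (adjusted p up to 0.12). The combined knockdown had 92.1, 105 and 110.4 CPM and siControl_2 had 83.3, 86.1 and 92.4 CPM, which overlapped. That change (log2 change 0.23 with SE 0.09, adjusted p = 0.044) lost its call without siControl_2 replicate 1 or 2 or combined knockdown replicate 2 or 3 (adjusted p up to 0.13) and with GC and length offsets or only the groups compared in the fit or siControl as the control or all 6 control libraries as the control (adjusted p up to 0.55), and was 0.19 (adjusted p = 0.062) without replicate 3 of the combined knockdown. CDC73 had 59.2, 62.3 and 58.4 CPM with wtZFX, 63.1, 61.9 and 59.9 CPM with ZFX12_13 and 79.4, 78.1 and 77.5 CPM with pCMV6. It showed the largest fall among the called members with each construct (log2 change -0.39 with SE 0.05, adjusted p = 2.2e-06 with wtZFX; log2 change -0.35 with SE 0.05, adjusted p = 1.6e-05 with ZFX12_13).

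PAF1, which names the complex, had 87.7, 92.2 and 80.9 CPM with siZFX, 58.6, 54.1 and 56.6 CPM with siZNF593 and 79.0, 75.9 and 74.0 CPM with siControl. Its siZFX libraries all lay above siControl, but without a call. PAF1 fell with siZNF593, with no overlap (log2 change -0.44 with SE 0.11, adjusted p = 0.0057), in every alternative but the minimum fold. It was lower with wtZFX than with pCMV6 (log2 change -0.17 with SE 0.06, adjusted p = 0.017), a call lost without wtZFX replicate 2 or pCMV6 replicate 2 or 3 (adjusted p up to 0.17). The subunit LEO1 had 37.6, 36.5 and 35.8 CPM with siZFX and 44.1, 44.1 and 41.8 CPM with siControl, with no overlap. The lower siZFX value was called (log2 change -0.24 with SE 0.08, adjusted p = 0.02), a call lost without siControl replicate 1 or 2 or siZFX replicate 2 or 3 (adjusted p up to 0.075) and with no filter on low counts or all 6 control libraries as the control (adjusted p up to 0.24). LEO1 had 42.8, 41.8 and 41.1 CPM in the combined knockdown and 36.6, 35.9 and 38.1 CPM with siControl_2 (log2 change 0.18 with SE 0.08, adjusted p = 0.069). Its wtZFX value was lower too (log2 change -0.20 with SE 0.08, adjusted p = 0.037), a call lost without wtZFX replicate 2 or 3 or pCMV6 replicate 1 or 3 (adjusted p up to 0.2) and with no filter on low counts or DESeq2 or GC and length offsets (adjusted p up to 0.25).

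WDR61, a subunit shared with the SKI complex of RNA decay, had 76.6, 78.6 and 76.0 CPM with siZFX, 66.5, 67.6 and 67.6 CPM with siZNF593 and 88.1, 92.5 and 83.0 CPM with siControl. Both siRNA groups lay below siControl. It fell with siZNF593 (log2 change -0.39 with SE 0.07, adjusted p = 0.00018) in every alternative but the minimum fold. The lower value with siZFX (log2 change -0.19 with SE 0.07, adjusted p = 0.039) lost its call without siControl replicate 1 or 2 or siZFX replicate 1 or 2 or 3 (adjusted p up to 0.17) and with upper-quartile scaling or no filter on low counts (adjusted p up to 0.13). WDR61 had 77.6, 75.9 and 85.3 CPM in the combined knockdown against 95.4, 95.3 and 95.2 CPM with siControl_2 (log2 change -0.26 with SE 0.07, adjusted p = 0.0044), a call lost with only the groups compared in the fit or siControl as the control (adjusted p up to 0.1). TCEA1, the TFIIS factor that rescues backtracked Pol II, had 141, 139 and 145 CPM with siZFX and 162, 176 and 152 CPM with siControl. TCEA1 was lower with siZFX (log2 change -0.21 with SE 0.07, adjusted p = 0.024), a call lost without siControl replicate 1 or 2 or siZFX replicate 1 or 2 (adjusted p up to 0.15) and with all 6 control libraries as the control (adjusted p = 0.15).

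CDK12 and CDK13, related kinases of the polymerase tail, were called in opposite directions with the ZFX constructs. CDK12 had 179, 175 and 169 CPM with wtZFX, 154, 186 and 187 CPM with ZFX12_13 and 219, 217 and 219 CPM with pCMV6. It fell with both, below every vector library (log2 change -0.32 with SE 0.06, adjusted p = 0.0001 with wtZFX; log2 change -0.31 with SE 0.06, adjusted p = 0.00018 with ZFX12_13). CDK13 had 113, 104 and 112 CPM with wtZFX, 111, 116 and 111 CPM with ZFX12_13 and 94.0, 88.3 and 86.0 CPM with pCMV6. It rose with both, above every vector library (log2 change 0.29 with SE 0.05, adjusted p = 8.5e-05 with wtZFX; log2 change 0.33 with SE 0.05, adjusted p = 2.5e-05 with ZFX12_13). The calls of CDK12 and CDK13 with the constructs held in every alternative but the minimum fold. Neither kinase was called with any siRNA against its control, with -0.15 (SE 0.07, adjusted p = 0.094) for CDK13 with siZFX, but CDK13 was lower there with GC and length offsets at -0.22 (adjusted p = 0.00096).

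Their cyclin CCNK had 9.49, 10.3 and 11.4 CPM in the combined knockdown against 5.86, 7.03 and 7.47 CPM with siControl_2. It was higher in the combined knockdown (log2 change 0.62 with SE 0.18, adjusted p = 0.0079), a call lost with siControl as the control or all 6 control libraries as the control (adjusted p up to 0.53). With single siRNAs it had 10.0, 12.04 and 9.84 CPM (siZFX) and 7.97, 5.38 and 9.92 CPM (siZNF593), against 9.42, 8.73 and 10.1 CPM with siControl. Because CCNK loses most of its reads to overlapping genes, the stranded columns were also summed, which gave 0.41 (adjusted p = 0.00031) in the combined knockdown, 0.25 (adjusted p = 0.02) with siZFX and -0.29 (adjusted p = 0.019) for siControl_2 against siControl.

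INTS6, an Integrator subunit that links the complex to a protein phosphatase, had 55.4, 58.1 and 52.0 CPM with siZFX and 48.0, 49.2 and 43.8 CPM with siControl, with no overlap. It was higher with siZFX (log2 change 0.23 with SE 0.08, adjusted p = 0.041), a call lost without siControl replicate 1 or 2 or 3 or siZFX replicate 1 or 2 (adjusted p up to 0.19) and with no filter on low counts or GC and length offsets (adjusted p up to 0.23). INTS6 had 48.3, 47.6 and 52.7 CPM in the combined knockdown, against 41.3, 45.1 and 41.4 CPM with siControl_2 (log2 change 0.22 with SE 0.09, adjusted p = 0.046), a call lost without siControl_2 replicate 1 or 3 or combined knockdown replicate 3 (adjusted p up to 0.11) and with no filter on low counts or GC and length offsets or only the groups compared in the fit or siControl as the control or all 6 control libraries as the control (adjusted p up to 0.9). Without replicate 3 of the combined knockdown its change was 0.18 (adjusted p = 0.093). With ZFX12_13 INTS6 had 41.5, 45.2 and 40.3 CPM, below wtZFX at 54.0, 46.3 and 56.7 CPM and pCMV6 at 49.9, 53.0 and 48.5 CPM. The difference from wtZFX (log2 change -0.31 with SE 0.07, adjusted p = 0.0031) held in every alternative but the minimum fold. That from pCMV6 (log2 change -0.25 with SE 0.07, adjusted p = 0.0081) was lost without pCMV6 replicate 2 (adjusted p = 0.055) and with GC and length offsets (adjusted p = 0.51).

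INTS1, the scaffold of Integrator, had 214, 191 and 129 CPM in the combined knockdown, all below siControl_2 at 236, 245 and 225 CPM. It fell there (log2 change -0.40 with SE 0.12, adjusted p = 0.015), with a change of -0.21 (adjusted p = 0.0054) without replicate 3 of the combined knockdown. The call was lost with only the groups compared in the fit, and GC and length offsets turned the change to 0.09 (adjusted p = 0.29). INTS1 had 302, 311 and 316 CPM with siZFX and 257, 256 and 245 CPM with siControl. With those offsets INTS1 was higher with siZFX, at 0.41 (adjusted p = 2.7e-06), where the value without them was 0.29 (adjusted p = 0.079). The fit behind that value also held replicate 3 of the combined knockdown, at 129 CPM, and its part in the missing call was not tested. INTS3, which also serves a single-stranded DNA binding complex, had 135, 138 and 130.4 CPM with wtZFX and 150.4, 156 and 157 CPM with pCMV6. It fell with wtZFX (log2 change -0.20 with SE 0.05, adjusted p = 0.0024). The endonuclease INTS11 was called in none of the comparisons above, though GC and length offsets gave calls in both directions, with 0.39 (adjusted p = 3e-05) in the combined knockdown and -0.31 (adjusted p = 3.5e-06) with wtZFX.

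Whether the 2 ZFX constructs differed was tested directly. Against wtZFX, 2 members were higher and 4 lower with ZFX12_13, where 20.4% of all genes were called, 9.73% higher and 10.6% lower, and INTS6 alone kept its call in every alternative but the minimum fold. WDR61 had 32.2, 32.5 and 31.5 CPM with ZFX12_13 and 34.8, 37.6 and 39.6 CPM with wtZFX, with no overlap. It was lower with ZFX12_13 (log2 change -0.22 with SE 0.07, adjusted p = 0.019), a call lost without wtZFX replicate 3 (adjusted p = 0.13). INTS3 had 142, 152 and 157 CPM with ZFX12_13, above the wtZFX libraries (log2 change 0.16 with SE 0.05, adjusted p = 0.026), a call lost without wtZFX replicate 1 or 3 or ZFX12_13 replicate 2 or 3 (adjusted p up to 0.14) and with no filter on low counts or only the groups compared in the fit (adjusted p up to 0.12). For the other 33 members no difference was called, with standard errors of 0.0447 to 0.188 on the log2 scale, which does not show that the constructs act alike.

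The 2 siRNAs were compared with each other as well. Between siZFX and siZNF593, 19 members were higher and 7 lower with siZFX, where 40.5% of all genes were called, 19.8% higher and 20.7% lower. The members' median difference was 0.25, beside -0.03 over all genes. Of these 26 calls, 19 held in every alternative but the minimum fold. The differences with the largest size were MLLT1 at 1.46 (adjusted p = 0.00052), LARP7 at 1.40 (adjusted p = 1.1e-09), ELL2 at 1.05 (adjusted p = 3.6e-10), MEPCE at 0.66 (adjusted p = 0.00051), AFF1 at 0.63 (adjusted p = 2.6e-05), PAF1 at 0.62 (adjusted p = 0.00012), BRD3 at 0.54 (adjusted p = 0.00019) and MLLT3 at 0.53 (adjusted p = 0.00034), all higher with siZFX. On the lower side AFF4 stood at -0.48 (adjusted p = 0.0002) and SUPT16H at -0.32 (adjusted p = 0.00086). The 7 genes of the PAF1 complex and TFIIS were all called, 4 higher and 3 lower. Leaving out 1 library ended the calls of NELFE, LEO1, WDR61, TCEA1, CDK13, CCNK and INTS6. LEO1 lost its call without siZNF593 replicate 2 (adjusted p = 0.051) and TCEA1 without siZFX replicate 1 or 2 or siZNF593 replicate 2 (adjusted p up to 0.077). NELFE lost it without siZFX replicate 1 or 3 or siZNF593 replicate 1 or 2 (adjusted p up to 0.21) and CDK13 without siZFX replicate 1 or 2 or siZNF593 replicate 3 (adjusted p up to 0.15). INTS6 lost it without siZFX replicate 1 or 2 or siZNF593 replicate 1 (adjusted p up to 0.13), WDR61 without any 1 of the 6 libraries (adjusted p up to 0.089) and CCNK without siZFX replicate 1 or 2 or 3 or siZNF593 replicate 1 or 2 (adjusted p up to 0.28).

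Between the 2 control siRNA groups, 4 members were lower in siControl_2 than in siControl, where 10.3% of all genes were called, 5.43% higher and 4.88% lower: ELL2, CTR9, NELFE and SSRP1. None was higher, with edgeR or with DESeq2, which called 1157 of all genes higher. The 10 members with an unadjusted p under 0.05 all had negative changes, where 11.4% of all genes had such a p and were higher and 11.3% were lower. With siControl in place of siControl_2, the combined knockdown had 3 members higher and 15 lower, where 18.7% of all genes were higher and 22.0% lower. With all 6 control libraries it had 4 higher and 12 lower, where 18.2% of all genes were higher and 21.3% lower. CDK9, LARP7, BRD3 and CTR9 kept their calls in the combined knockdown under each of these control groups.

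The combined change was also tested against each single change, with siControl_2 and siControl as their own controls. It lay above the siZFX change for 2 members and below it for 7, where 17.7% of all genes were called, 8.76% above and 8.97% below. It lay above the siZNF593 change for 6 members and below it for 0, where 16.6% were called, 7.97% above and 8.60% below. No member lay below the siZNF593 change at an unadjusted p under 0.05 with edgeR. DESeq2 called 0 members below and 9 above it, where it called 1696 of all genes below and 1688 above. Without replicate 3 of the combined knockdown the second test had 14 members above and 1 below, and the genes called numbered 3897 in place of 2929, with 1947 above and 1950 below. The first had 2 members above and 8 below without it, where 1902 of all genes lay above and 2003 below. The members are SUPT16H, ELL2, MLLT3, CTR9, CDC73 and CCNK above the siZNF593 change, SUPT16H and LEO1 above the siZFX change, and NELFB, CDK9, LARP7, BRD3, ELL2, MLLT1 and INTS1 below it.

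The ZFX knockdown and the return of ZFX used different lines and share no library. They also changed ZFX by very different amounts. It averaged 15.7 CPM with siZFX and 49.6 CPM with siControl, but 15430.1 CPM with wtZFX and 226.9 CPM with pCMV6. Of the 39 members, 5 were higher with siZFX and lower with wtZFX, namely MEPCE, LARP7, AFF1, CTR9 and CCNT2. Another 2, RTF1 and BRD3, were lower with siZFX and higher with wtZFX. ELL was higher in both, SUPT16H and LEO1 were lower in both, and 13 members were called in neither. Leaving out 1 library could end the siZFX calls of CCNT2, AFF1, BRD3, ELL and LEO1 and the wtZFX calls of LARP7 and LEO1. MEPCE, CTR9, RTF1 and SUPT16H kept both calls whichever library was left out. Higher and then lower made up 12.8% of the members and 6.21% of the 15973 genes tested in both lines, and lower and then higher made up 5.13% of the members and 8.75% of those genes; these shares were not tested against each other. Over the 39 members the 2 sets of log2 changes had a Pearson r of -0.38 and a Spearman rho of -0.40, beside -0.31 and -0.34 over all 15973 genes, a description across genes that share libraries and are not independent replicates.

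**Figure D5:**
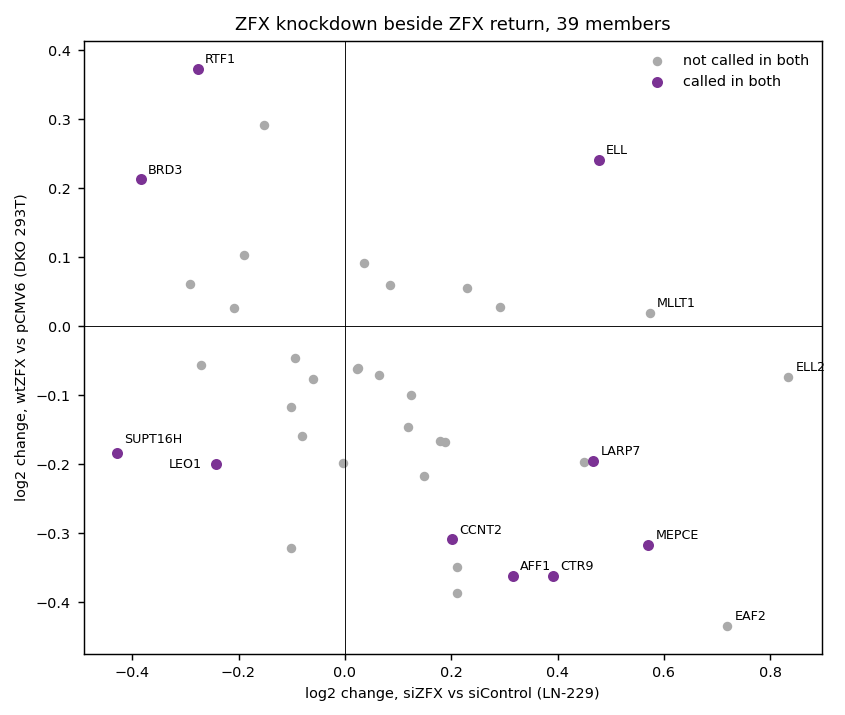
Log2 change with siZFX against siControl in LN-229 (x axis) and with wtZFX against pCMV6 in knockout 293T cells (y axis), 1 point per tested member. Purple points are called in both comparisons, and of these MEPCE, CTR9, RTF1 and SUPT16H alone kept both calls whichever library was left out. RTF1 and BRD3 lie in the upper left, MEPCE, CTR9, AFF1, LARP7 and CCNT2 in the lower right, ELL in the upper right, and SUPT16H and LEO1 in the lower left.

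Promoter windows are shown because ZFX binds promoters. Whether ZFX acts directly on any member, also on those called in opposite directions with siZFX and wtZFX, was not tested. RefSeq windows (GRCh38.p14), 250 bases before to 50 bases after each start, were found for 38 members, in 49 windows, and not for ELL2, CDC73 and TCEA1. Bases further upstream or downstream were not searched, so the counts below say nothing of sites there. The palindrome AGGCCT, reported as the core of the ZFX motif, was searched on both strands. It stood in 1 of the 49 member windows (2.04%), that of AFF4, where it begins 205 bases before the start, and in 10.9% of all 35116 windows. Its first 5 letters AGGCC, or GGCCT on the other strand, overlap it and stood in 34 member windows (69.4%), beside 56.2% of all windows; the median GC content was 66% in member windows and 58.7% in all. The windows of CTR9, which was higher with siZFX and lower with wtZFX, of RTF1 and BRD3, which did the reverse, and of AFF4 are printed 5′ to 3′ on the gene's strand with AGGCC and GGCCT in capitals. They lie at chr11:10750996-10751295 (CTR9, plus strand), chr15:41416845-41417144 (RTF1, plus strand), chr9:134067977-134068276 (BRD3, minus strand) and chr5:132963585-132963884 (AFF4, minus strand).
CTR9: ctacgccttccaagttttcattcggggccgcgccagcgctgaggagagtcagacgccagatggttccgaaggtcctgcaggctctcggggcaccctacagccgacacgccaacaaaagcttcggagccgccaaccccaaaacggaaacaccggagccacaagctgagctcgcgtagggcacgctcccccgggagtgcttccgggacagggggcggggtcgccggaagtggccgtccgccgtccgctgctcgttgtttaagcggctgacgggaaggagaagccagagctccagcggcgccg
RTF1: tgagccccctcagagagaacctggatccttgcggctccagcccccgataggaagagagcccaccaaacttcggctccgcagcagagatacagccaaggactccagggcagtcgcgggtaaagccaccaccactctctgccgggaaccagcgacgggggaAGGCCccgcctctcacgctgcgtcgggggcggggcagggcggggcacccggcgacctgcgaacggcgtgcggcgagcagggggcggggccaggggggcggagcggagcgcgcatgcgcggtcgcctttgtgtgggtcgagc
BRD3: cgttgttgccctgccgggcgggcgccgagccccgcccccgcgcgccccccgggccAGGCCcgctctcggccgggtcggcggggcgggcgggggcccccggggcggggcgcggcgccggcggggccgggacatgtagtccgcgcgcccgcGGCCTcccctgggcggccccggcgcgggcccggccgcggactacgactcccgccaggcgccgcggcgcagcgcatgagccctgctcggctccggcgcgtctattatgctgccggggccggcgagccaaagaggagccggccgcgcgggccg
AFF4: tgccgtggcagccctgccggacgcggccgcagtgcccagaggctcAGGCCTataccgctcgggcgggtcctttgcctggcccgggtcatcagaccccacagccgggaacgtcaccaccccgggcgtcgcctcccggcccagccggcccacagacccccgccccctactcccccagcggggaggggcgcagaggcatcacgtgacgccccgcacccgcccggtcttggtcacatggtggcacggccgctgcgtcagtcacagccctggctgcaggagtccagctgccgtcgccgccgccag
The CTR9 window holds neither form, RTF1 holds 1, BRD3 holds 2, and both forms in AFF4 come from the 1 palindrome. A match is a description of letters and not a binding site.

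Between the lines, 17 members were higher and 16 lower in knockout 293T cells with pCMV6 than in LN-229 with siControl, where 76.8% of 21293 genes were called, 41.4% higher and 35.4% lower. Line, genotype and treatment cannot be told apart in this comparison. Its CPM values rest on TMM factors over all 24 libraries, which ran from 0.842 to 1.25, so they differ from the values within a line given above. EAF2 had 4.53, 4.85 and 4.27 CPM with pCMV6 and 1.04, 1.21 and 0.933 CPM with siControl (log2 change 2.09 with SE 0.33, adjusted p = 1.2e-06), the largest difference of any member. AFF1 had 87.3, 90.1 and 86.1 CPM with pCMV6 and 43.2, 37.3 and 43.2 CPM with siControl, with no overlap. It was higher with pCMV6 by 1.09 (adjusted p = 8.4e-13), BRD3 by 0.94 (adjusted p = 3.6e-12) and INTS3 by 0.93 (adjusted p = 5.6e-12). HEXIM2 was higher by 0.98 (adjusted p = 0.00017) with 5.85, 5.08 and 4.85 CPM against 2.70, 2.66 and 2.65 CPM with siControl, and by 0.29 (adjusted p = 0.042) with the stranded columns summed. Of the 7 genes of the PAF1 complex and TFIIS, 5 were lower and 1 higher with pCMV6. WDR61 had 27.6, 29.02 and 28.2 CPM with pCMV6 and 100.36, 105 and 94.5 CPM with siControl (log2 change -1.82 with SE 0.07, adjusted p = 3.3e-21). LEO1 had 21.5, 19.9 and 20.8 CPM with pCMV6 and 50.3, 50.1 and 47.6 CPM with siControl (log2 change -1.25 with SE 0.08, adjusted p = 1.3e-15). These ranges lay far apart.

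NELFCD, a NELF subunit, had 93.4, 95.1 and 94.3 CPM with pCMV6 and 198, 208 and 198 CPM with siControl (log2 change -1.09 with SE 0.06, adjusted p = 1e-17). TCEA1 had 96.2, 93.2 and 98.6 CPM with pCMV6, below 185, 200.3 and 173 CPM with siControl (log2 change -0.96 with SE 0.07, adjusted p = 1.2e-13). CDK13 had 76.4, 71.9 and 70.0 CPM with pCMV6 and 159, 144 and 148 CPM with siControl, also apart. It was lower with pCMV6 at -1.05 (adjusted p = 9.5e-16), as was CDK9 at -0.82 (adjusted p = 1.2e-11). GC and length offsets moved the median of all genes by -0.12 on the log2 scale. Upper-quartile scaling moved it by 0.31, gave 10742 genes higher and 6027 lower in place of 8817 and 7535, and ended the calls of NELFB, NELFE, CCNT2, HEXIM1, MLLT1, INTS1 and INTS6, with NELFE and CCNT2 at 0.033 and 0.0062 in place of -0.28 (adjusted p = 0.0016) and -0.31 (adjusted p = 0.00034). SUPT5H lost its call without siControl replicate 2 or 3 or pCMV6 replicate 2 or 3 (adjusted p up to 0.11) and with GC and length offsets (adjusted p = 0.13), and MLLT1 lost its call without any 1 of the 6 libraries (adjusted p up to 0.093).

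Beyond the members, 60 further pathway genes from 4 lists were tested, namely 13 other Integrator subunits, 12 Pol II subunits, 21 other elongation partners, and 14 kinases and phosphatases of the polymerase tail. Of these, 9 were higher and 11 lower with siZFX, 5 higher and 11 lower with siZNF593, 13 higher and 14 lower in the combined knockdown, 11 higher and 16 lower with wtZFX, and 8 higher and 17 lower with ZFX12_13. The share called was 33.3% with siZFX, 26.7% with siZNF593 and 45% in the combined knockdown, beside 30.9%, 26.8% and 38.2% of all genes in the same comparisons. It was 45% with wtZFX and 41.7% with ZFX12_13, beside 42.3% and 36.6% of all genes. POLR2A, the catalytic Pol II subunit, was higher with siZFX at 0.80 (SE 0.08, adjusted p = 4.3e-08). The Integrator subunit INTS14 was lower with siZNF593 at -1.71 (SE 0.09, adjusted p = 1.1e-12) and in the combined knockdown at -1.40 (SE 0.08, adjusted p = 2e-11). AFF3, a paralogue of the AFF scaffolds, was lower with siZFX at -1.04 (SE 0.18, adjusted p = 7.4e-05), higher with siZNF593 at 0.88 (SE 0.16, adjusted p = 0.0003) and lower in the combined knockdown at -1.05 (SE 0.17, adjusted p = 4.4e-05). In the knockout cells AFF3 was higher with wtZFX at 1.02 (SE 0.10, adjusted p = 1.7e-08) and with ZFX12_13 at 1.31 (SE 0.10, adjusted p = 2.7e-10).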

How the data were processed

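RNA-seq was made from total RNA of 24 libraries with the NEBNext Ultra II kit, per the labels. The deposited values are raw read counts per gene, 1 unstranded and 2 stranded columns per library; STAR, HTSeq, DESeq2 and GRCh38/hg38 are named by the submitters' processing notes, with versions and roles not given in the sources used here. All 58721 gene IDs matched GENCODE release 29, which gave symbols, lengths and GC content. The forward column held about as many reads as the reverse one, so the unstranded column was used, leaving out the rows for reads on no gene.

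Counts were tested with edgeR 4.0.16 (R 4.3.3; TMM factors, filterByExpr, robust quasi-likelihood fit) over all genes, per line (15 LN-229 libraries, 17684 genes; 9 knockout 293T libraries, 19376 genes; all 24 for the line comparison, 21293 genes). A call is a Benjamini-Hochberg adjusted p under 0.05 over all tested genes, and log2 changes carry the SE of the fit. The square root of the common dispersion was 11.2% (LN-229) and 5.26% (knockout cells), a spread among replicates that could be technical. Alternatives were RLE and upper-quartile scaling, no filter or 1 CPM in 3 libraries, DESeq2 1.42.0, GC and length offsets, the stranded columns summed, only the groups compared, other control groups, a replicate block, a minimum of 1.5-fold, and each library left out.

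The 41 members and the wider lists were chosen with earlier results of these data known. Members were named by complex, with values in every library for the called members with the 8 largest absolute log2 changes per comparison and for the others named with them. From the wider lists, at most 4 called genes per comparison with the largest change were named.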

Additional observations from a re-analysis of the deposited data

Results flagged for a closer look

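The combined knockdown against siControl_2 moved some members differently from a single siRNA against siControl, by a test of the difference itself (edgeR, adjusted p under 0.05). Each value is the combined change less the single one, on the log2 scale. Against the siZFX change, the difference was -0.43 (adjusted p = 0.012) for NELFB, -0.49 (adjusted p = 0.004) for CDK9, -0.94 (adjusted p = 0.00013) for LARP7 and -0.80 (adjusted p = 0.00032) for BRD3. It was -0.51 (adjusted p = 0.0026) for ELL2, -1.14 (adjusted p = 0.039) for MLLT1 and -0.69 (adjusted p = 0.0094) for INTS1. It was positive for SUPT16H at 0.72 (adjusted p = 1.5e-05) and for LEO1 at 0.43 (adjusted p = 0.0089). NELFB had -0.07 (adjusted p = 0.8) with GC and length offsets, and MLLT1 lost its call without any 1 of the 9 siControl, siZFX and siControl_2 libraries (adjusted p up to 0.078).

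Against the siZNF593 change, the difference was 0.40 (adjusted p = 0.0067) for SUPT16H, 0.54 (adjusted p = 0.0019) for ELL2 and 0.61 (adjusted p = 0.0062) for MLLT3. It was 0.66 (adjusted p = 9.5e-05) for CTR9, 0.50 (adjusted p = 0.0085) for CDC73 and 0.90 (adjusted p = 0.015) for CCNK. Replicate 3 of the combined knockdown, whose deviation had the strongest correlation with GC content, bore on these values. Without it 14 members lay above the siZNF593 change in place of 6, as 3897 of all genes were called in place of 2929. MEPCE at 0.53 (adjusted p = 2.6e-05), MLLT1 at 0.64 (adjusted p = 1.4e-06) and BRD2 at 0.45 (adjusted p = 1.7e-05) were among those members. The difference between the 2 control groups enters each of these values. Its part in them was not tested.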

How the results depend on the processing

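Counts of members higher or lower stayed within 1.5 times the reported count except as follows. Asking for at least 1.5-fold gave 1 higher (reported 8), 0 lower (reported 8) and 2442 of all genes called (reported 5464) for siZFX, and 3 lower (reported 14) and 1979 of all genes called (reported 4741) for siZNF593. It gave 2 higher (reported 8), 1 lower (reported 7) and 3335 of all genes called (reported 6753) for the combined knockdown, and 0 lower (reported 4) and 718 of all genes called (reported 1824) for siControl_2 against siControl. The setting gave 6 higher (reported 19), 0 lower (reported 7) and 3930 of all genes called (reported 7164) for siZFX against siZNF593, and 1 higher (reported 2), 4 lower (reported 7) and 1892 of all genes called (reported 3137) for the combined less the siZFX change. This gave 3 higher (reported 6) and 1647 of all genes called (reported 2929) for the combined less the siZNF593 change, and 0 higher (reported 4), 0 lower (reported 16) and 2727 of all genes called (reported 8202) for wtZFX. It gave 0 higher (reported 5), 0 lower (reported 11) and 2277 of all genes called (reported 7086) for ZFX12_13, and 0 higher (reported 2), 0 lower (reported 4) and 1175 of all genes called (reported 3944) for ZFX12_13 against wtZFX. The setting gave 10 higher (reported 17) and 9 lower (reported 16) for pCMV6 against siControl. Upper-quartile scaling gave 8 lower (reported 14), beside 2138 of all genes lower (reported 2577), for siZNF593. It gave 9 lower (reported 16), beside 6027 of all genes lower (reported 7535), for pCMV6 against siControl. Dropping the filter on low counts gave 3 lower (reported 7), beside 3378 of all genes lower (reported 3660), for siZFX against siZNF593. It gave 1 higher (reported 2), beside 1564 of all genes higher (reported 1885), for ZFX12_13 against wtZFX. GC and length offsets gave 13 higher (reported 8), beside 3265 of all genes higher (reported 2439), for siZFX, and 9 lower (reported 4) and 3138 of all genes called (reported 1824) for siControl_2 against siControl. This gave 4 higher (reported 2), beside 1953 of all genes higher (reported 1550), for the combined less the siZFX change. It gave 13 higher (reported 6) and 3 lower (reported 0) for the combined less the siZNF593 change, beside 2170 of all genes higher (reported 1409) and 1827 lower (reported 1520). It gave 7 higher (reported 4), beside 4627 of all genes higher (reported 4488), for wtZFX, and 4 higher (reported 2), beside 2265 (reported 1885), for ZFX12_13 against wtZFX. A replicate block with GC and length offsets gave 9 lower (reported 4) and 3061 of all genes called (reported 1824) for siControl_2 against siControl, and 4 higher (reported 2), beside 1934 of all genes higher (reported 1550), for the combined less the siZFX change. The setting gave 13 higher (reported 6) and 2 lower (reported 0) for the combined less the siZNF593 change, beside 2143 of all genes higher (reported 1409) and 1830 lower (reported 1520). It gave 8 higher (reported 4), beside 4657 of all genes higher (reported 4488), for wtZFX. This gave 4 higher (reported 2), beside 2263 of all genes higher (reported 1885), for ZFX12_13 against wtZFX. Fitting only the groups compared gave 14 higher (reported 8) for siZFX, and 1 higher (reported 0) for siZNF593. It gave 5 higher (reported 8) and 3 lower (reported 7) for the combined knockdown, and 9 lower (reported 4) and 3700 of all genes called (reported 1824) for siControl_2 against siControl. The setting gave 0 higher (reported 2) and 2 lower (reported 4) for ZFX12_13 against wtZFX. Summing the stranded columns gave 1 higher (reported 2) for ZFX12_13 against wtZFX. siControl as the control gave 3 higher (reported 8) and 15 lower (reported 7) for the combined knockdown. All 6 control libraries as the control gave 4 higher (reported 8) and 12 lower (reported 7) for the combined knockdown, and 5 lower (reported 8) for siZFX. This gave 1 higher (reported 0) and 9 lower (reported 14) for siZNF593. Where a setting has no count of all genes beside it, the number called stayed within 1.5 times the reported one. Over the settings that kept every library, all genes called ran from 2442 to 7999 for siZFX and 1979 to 6288 for siZNF593. They ran from 3335 to 7595 for the combined knockdown, 1175 to 4551 for ZFX12_13 against wtZFX and 13569 to 18196 for pCMV6 against siControl. Leaving out 1 library gave 5 higher and 3 to 7 lower, with 4377 to 4489 genes called, for siZFX, and 0 higher and 9 to 12 lower, with 3564 to 4022 genes called, for siZNF593. The range was 5 to 8 higher and 6 to 9 lower, with 5659 to 6987 genes called, for the combined knockdown, and 0 higher and 1 to 4 lower, with 1204 to 1367 genes called, for siControl_2 against siControl. There were 16 to 18 higher and 4 to 6 lower, with 6099 to 6488 genes called, for siZFX against siZNF593, and 2 to 3 higher and 6 to 9 lower, with 2443 to 3905 genes called, for the combined less the siZFX change. It left 6 to 14 higher and 0 to 1 lower, with 2323 to 3897 genes called, for the combined less the siZNF593 change, and 4 higher and 10 to 15 lower, with 6870 to 7292 genes called, for wtZFX. The range was 3 to 5 higher and 9 to 15 lower, with 5816 to 7433 genes called, for ZFX12_13, and 1 higher and 1 to 5 lower, with 3015 to 4540 genes called, for ZFX12_13 against wtZFX. There were 16 to 17 higher and 15 lower, with 15779 to 16031 genes called, for pCMV6 against siControl. With GC and length offsets, the value was NELFA 0.34 (reported -0.017), NELFB 0.13 (reported -0.30), SUPT5H 0.26 (reported -0.0044), INTS1 0.086 (reported -0.40) and INTS11 0.39 (reported -0.054) in the combined knockdown and INTS11 0.37 (reported -0.038) for the combined less the siZNF593 change. The same fit gave MLLT1 -0.24 (reported 0.02) and INTS1 -0.28 (reported 0.027) with wtZFX and MLLT1 -0.18 (reported 0.046) and INTS11 -0.15 (reported 0.06) with ZFX12_13. With those offsets and a replicate block, the value was NELFA 0.34, NELFB 0.13, SUPT5H 0.26, INTS1 0.085 and INTS11 0.39 in the combined knockdown and INTS11 0.36 for the combined less the siZNF593 change. The same fit gave MLLT1 -0.24 and INTS1 -0.28 with wtZFX and MLLT1 -0.18 and INTS11 -0.15 with ZFX12_13. With the stranded columns summed, the value was HEXIM2 0.27 (reported -0.14) with ZFX12_13. With upper-quartile scaling, the value was NELFE 0.033 (reported -0.28) and CCNT2 0.0062 (reported -0.31) for pCMV6 against siControl. With siControl as the control, the value was NELFE -0.26 (reported 0.0064), SSRP1 -0.16 (reported 0.079) and ELL2 -0.061 (reported 0.33) in the combined knockdown. Over single members, 7193 values kept direction and side of the threshold, 426 lost a call, 272 gained one and 26 turned. The cause of these moves was not tested.

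Deviations of same-numbered replicates had correlations of -0.125 to 0.170 in LN-229 and -0.066 to 0.051 in the knockout cells. Pairs with different numbers had -0.207 to 0.209 and -0.137 to 0.143. These values show no pairing by number, but they cannot exclude 1. With the replicate number as a block, members called higher and lower were 9 and 8 for siZFX, 0 and 12 for siZNF593, 8 and 9 for the combined knockdown, 0 and 4 for siControl_2 against siControl, 20 and 7 for siZFX against siZNF593 and 2 and 9 for the combined less the siZFX change. Over all genes the counts in that order were 2448 and 3035, 2119 and 2592, 3091 and 3697, 959 and 860, 3543 and 3637, and 1522 and 1663. The block gave 7 and 0 for the combined less the siZNF593 change, 4 and 17 for wtZFX, 5 and 11 for ZFX12_13, 2 and 4 for ZFX12_13 against wtZFX and 17 and 16 for pCMV6 against siControl. Over all genes the block gave, in that order, 1408 and 1560, 4481 and 3697, 4039 and 3068, 1865 and 2050, and 8768 and 7491. It ended the calls of SSRP1 and ELL2 with siZNF593 and of BRD2 with ZFX12_13. SUPT4H1 and ELL3 had too few reads to test, 4 and 80 over 24 libraries, or 55 and 1080 with the stranded columns summed. With 3 libraries a group, the calls that held without any 1 library were 6 of 16 for siZFX, 7 of 14 for siZNF593, 10 of 15 for the combined knockdown, 14 of 20 for wtZFX and 12 of 16 for ZFX12_13.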

Other observations

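Among the wider pathway genes, TCEA2, a paralogue of TFIIS, was lower with siZFX at -0.63 (SE 0.11, adjusted p = 6.5e-05) and higher with siZNF593 at 1.15 (SE 0.10, adjusted p = 1.4e-08). POLR2C, a core Pol II subunit, was lower with siZNF593 at -0.93 (SE 0.08, adjusted p = 2.3e-09). INTS2, an Integrator subunit, was lower with siZFX at -0.65 (SE 0.11, adjusted p = 4.3e-05). In the combined knockdown RPAP2, a phosphatase of the polymerase tail, was lower at -0.65 (SE 0.13, adjusted p = 0.00025).

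In the knockout cells C7orf26, since assigned to Integrator, was higher with wtZFX at 0.49 (SE 0.08, adjusted p = 1.7e-05) and more so with ZFX12_13 at 1.21 (SE 0.08, adjusted p = 5.9e-12), a difference between the constructs of 0.71 (SE 0.07, adjusted p = 1.3e-07). The AFF paralogue AFF2 was higher with wtZFX at 1.05 (SE 0.22, adjusted p = 0.00047) and with ZFX12_13 at 0.97 (SE 0.23, adjusted p = 0.002). Between the lines AFF2 was lower with pCMV6 than with siControl at -2.79 (SE 0.26, adjusted p = 4.2e-11), and RPRD1A, which binds the polymerase tail, was higher at 2.27 (SE 0.07, adjusted p = 3.3e-23).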
